A study of Arabidopsis thaliana with 9 samples.

Results

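Seedlings of the Arabidopsis thaliana mutant vtc1-1 were compared with seedlings of the wild type Col-0 across the whole transcriptome, on 3 arrays of each genotype out of 9 in the series. The arrays were chosen by the genotype in their labels. The remaining 3 arrays, of a second ascorbate-deficient mutant, vtc2-1, entered the analysis only in the choice of tested probe sets and to estimate the spread between arrays. Col-0 was labelled wild type and vtc1-1 carried the vtc1-1 mutation. Whole plants were taken from minimal nutrient agar in a growth chamber after 14 days, at stage 1.04. Every sample's RNA had an Affymetrix ATH1 array to itself, on which a probe set is a group of short probes for 1 transcript. Nothing in the labels names a batch or says that replicates were separate sowings, so the p-values cover no more than the spread from sample to sample.

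As background, ascorbate (vitamin C) is the main water-soluble antioxidant of plant cells, a substrate of ascorbate peroxidases and a cofactor of iron-dependent dioxygenases. VTC1 encodes GDP-mannose pyrophosphorylase, which makes the GDP-mannose used for ascorbate, for cell wall polysaccharides and for protein glycosylation. The vtc1-1 mutant is known for low ascorbate, sensitivity to ozone and raised defence gene expression. No probe set was paired with VTC1 or VTC2 in the annotation used here, so the mutated gene was not analysed here and could not check the labels.

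A probe set was tested if its signal lay above the 40th percentile of its array in at least 3 of the 9 arrays, which left 14603 of 22810. Of these, 7897 name a single gene. The linear model limma called 0 of 14603 probe sets (0.0%) at a Benjamini-Hochberg adjusted p under 0.05 with all arrays. An unadjusted p under 0.05 was reached by 603 (4.13%), of which 330 (2.26%) were higher and 273 (1.87%) lower in vtc1-1. At 1160 probe sets (7.94%) the 3 vtc1-1 arrays did not overlap the 3 Col-0 arrays, 637 higher (4.36%) and 523 lower (3.58%). Neither the 4.13% nor the 7.94% exceeds what groups without any difference give on average, so these counts are no support for differences. A fit without Col-0 replicate 3 yielded 47 limma calls (0.322%), 33 higher (0.226%) and 14 lower (0.0959%) in vtc1-1. In it, 1033 probe sets (7.07%) had an unadjusted p under 0.05 on the higher side and 813 (5.57%) on the lower. The words rose and fell are used below only for these 47. Genes are otherwise given as values.

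Col-0 replicate 3 stood apart from the other wild-type arrays. It was at least 2-fold above the mean of Col-0 replicates 1 and 2 at 976 probe sets (6.68%) and at least 2-fold below it at 467 (3.2%). The same count for the other 5 arrays, each against the remaining pair of its group, was 232 to 348 above and 243 to 623 below. At 9717 probe sets (66.5%) the level of Col-0 replicate 3 was closer to the mutant mean than to that of Col-0 replicates 1 and 2. The mutant mean rests on 3 arrays and the other on 2, which by itself favours the mutant mean. This share was not computed for the other arrays. Its 25S ribosomal RNA control signal was 821, against 1990 to 7015 in the other 5 arrays compared, while its mean log2 ratio of 3' over 5' control signal of 0.284 lay within their range of 0.275 to 0.648. The part of these control signals in the results was not tested. Class medians are therefore given with and without this array.

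**Figure D1:**
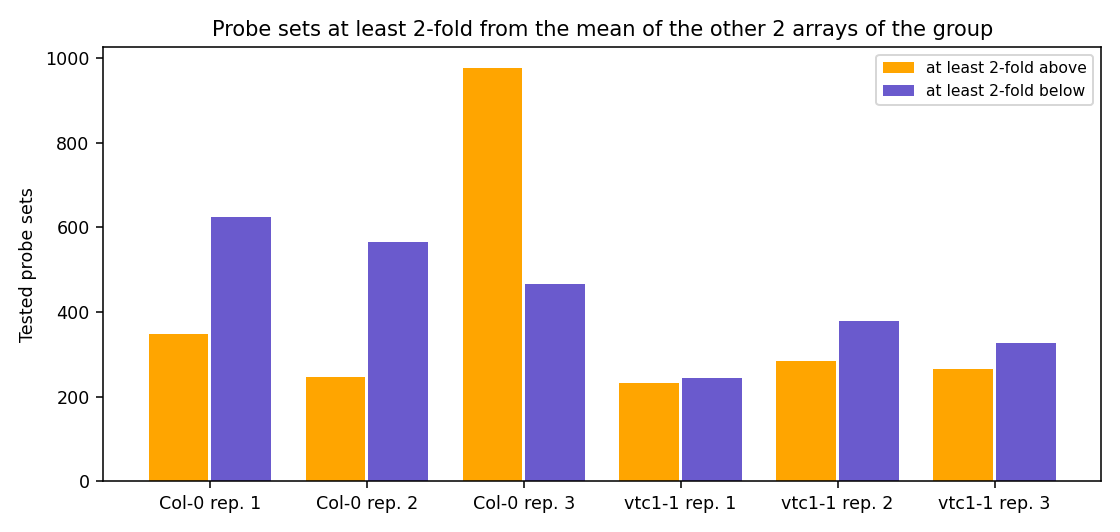
Number of tested probe sets (vertical axis) at which an array lay at least 2-fold above or below the mean of the other 2 arrays of its genotype, for the 3 Col-0 and 3 vtc1-1 arrays. Col-0 replicate 3 has 976 probe sets above, and the 5 other arrays have 232 to 348.

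The organs in the samples were checked with marker genes. For roots, 4 of 8 written markers were paired with a probe set and tested. Their summed signal was 2983 to 3517 in Col-0 and 2064 to 2751 in vtc1-1, so the groups did not overlap, and most of the sum came from PYK10, described with the endoplasmic reticulum body genes below. The root-hair expansins EXPA7 and EXPA18 overlapped between the genotypes, at log2 differences of -0.11 and -0.09. For leaves only RCA, the activator of Rubisco, was tested of 9 markers, with signals of 8376, 8084 and 5751 in Col-0 (replicates in the order 1, 2, 3, here and below) and 7053, 6295 and 7084 in vtc1-1. None of the 6 flower and 7 seed markers was paired with a probe set, so these organs were not analysed here. In whole plants, fewer cells of a type and less RNA per cell cannot be told apart. The reference genes AT4G34270, GAPC2 and AT2G28390 differed by 0.09, 0.04 and 0.04 on the log2 scale.

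No gene of ascorbate synthesis or recycling passed the test. Of 16 genes of ascorbate synthesis, 7 had a tested probe set, of which 0 passed in either direction with or without Col-0 replicate 3, and the median log2 difference was 0.11 with all arrays and 0.05 without that array (all tested probe sets 0.01 and -0.02). PMM, phosphomannomutase, the enzyme upstream of VTC1, had signals of 288, 297 and 439 in Col-0 and 409, 431 and 452 in vtc1-1. Its vtc1-1 arrays lay above Col-0 replicates 1 and 2 but overlapped Col-0 replicate 3, and the log2 difference was 0.36 ± 0.18 (SE, n = 3 arrays per group) with all arrays and 0.55 ± 0.15 without it (limma adjusted p = 0.136).

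GME, GDP-mannose epimerase, the enzyme downstream of VTC1, had signals of 1074, 1066 and 788 in Col-0 and 839, 839 and 854 in vtc1-1. Here the same wild-type array was the lowest of the 6, and the difference was -0.20 ± 0.15 with all arrays and -0.34 ± 0.13 without it (limma adjusted p = 0.301). VTC4, which removes phosphate from galactose 1-phosphate, differed by 0.22 ± 0.21, the galactose dehydrogenase AT4G33670 by 0.16 ± 0.15 and GLDH, the mitochondrial last enzyme, by -0.13 ± 0.31. AT1G74910 and AT2G04650, relatives of VTC1 known to stimulate its activity, differed by 0.11 ± 0.18 and -0.45 ± 0.40. All 5 overlapped between the genotypes.

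Of 20 genes that recycle ascorbate through glutathione, 5 were tested, and 0 passed the test. Their median log2 difference was 0.04 with all arrays and 0.04 without Col-0 replicate 3. SAPX, the stromal ascorbate peroxidase, had signals of 135, 138 and 144 in Col-0 and 147, 123 and 259 in vtc1-1, where replicate 3 alone was high. TAPX, its thylakoid counterpart, had 304, 339 and 187 in Col-0 and 277, 273 and 269 in vtc1-1. The monodehydroascorbate reductase ATMDAR2 differed by 0.21 ± 0.18, and the glutathione reductases GR and GR1 by 0.04 ± 0.17 and 0.02 ± 0.17. Among 10 glutaredoxins and thioredoxins the median was 0.01 with all arrays and 0.04 without Col-0 replicate 3, and among 9 glutathione transferases, which conjugate glutathione to reactive compounds, it was -0.08 and -0.06.

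Genes are named next by their difference with all arrays, among those that did not overlap, had an unadjusted p under 0.01 and a mean, in the group where they were higher, over the median signal of what was tested, 12 on either side. PDF1.2b, an antifungal plant defensin of the jasmonate and ethylene response, had signals of 13.1, 15.7 and 18.7 in Col-0 and 83.8, 97.0 and 386 in vtc1-1. Each vtc1-1 array was far above each wild-type array, and vtc1-1 replicate 3 was the highest. The log2 difference was 3.23 ± 0.49 (limma adjusted p = 0.296), and without Col-0 replicate 3 PDF1.2b rose by 3.35 ± 0.52 (adjusted p = 0.0212). Every wild-type signal of PDF1.2b was under the 40th percentile of its array, which leaves the size uncertain, and this probe set can also bind near-identical defensin transcripts.

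AT3G23550, a carrier of the MATE family that exports small molecules, had signals of 58.0, 77.8 and 103 in Col-0 and 176, 191 and 217 in vtc1-1. Its groups were well separated, at a log2 difference of 1.32 ± 0.22 with all arrays (limma adjusted p = 0.382), and it rose by 1.53 ± 0.21 without Col-0 replicate 3 (adjusted p = 0.0102). AT2G38010, a ceramidase that splits sphingolipids, had 54.2, 33.8 and 77.6 in Col-0 and 107, 102 and 102 in vtc1-1. It rose by 1.27 ± 0.23 in the fit without Col-0 replicate 3 (limma adjusted p = 0.0362). AT1G49750, a leucine-rich repeat protein, had 373, 431 and 641 in Col-0 and 857, 921 and 833 in vtc1-1, and rose by 1.12 ± 0.18 in the same fit (adjusted p = 0.0237).

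SCPL45, a serine carboxypeptidase-like protein, had signals of 79.0, 76.7 and 93.5 in Col-0 and 190, 164 and 142 in vtc1-1. Its limma adjusted p was 0.615 with all arrays and 0.0531 without Col-0 replicate 3, so it passed in neither fit. LHCB4.3, a minor light-harvesting antenna protein of photosystem II, had 78.6, 60.7 and 88.0 in Col-0 and 118, 108 and 203 in vtc1-1, again without overlap. AT5G44400, a berberine bridge enzyme-like oxidase, differed by 0.81 ± 0.25 and AT3G43590, a zinc knuckle protein, by 0.78 ± 0.20. The remaining 4 of the 12 named genes on this side (AT1G47640, PRA1.B6, AT5G50310 and AT2G17972) differed by 0.73, 0.66, 0.64 and 0.64. PRA1.B6 belongs to the prenylated Rab acceptors of the endomembranes, and the probe set of AT1G47640 is shared with near-identical transcripts.

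Under the same limits, the 2 genes furthest below the wild type encode dioxygenases. AT5G05600, a 2-oxoglutarate- and iron-dependent dioxygenase that inactivates jasmonate by hydroxylation (also called JOX2), had signals of 111, 103 and 59.8 in Col-0 and 29.8, 23.7 and 8.12 in vtc1-1. The log2 difference was -2.30 ± 0.42 with all arrays (limma adjusted p = 0.615), and it fell by 2.58 ± 0.44 on the log2 scale without Col-0 replicate 3 (adjusted p = 0.0267). AT1G14120, of the same enzyme family, had 89.8, 79.3 and 105 in Col-0 and 30.4, 24.1 and 11.6 in vtc1-1, a difference of -2.15 ± 0.43 with all arrays and -2.05 ± 0.49 without that array (adjusted p = 0.1). For both genes 2 of the 3 vtc1-1 signals were under the 40th percentile of the array. The closest signals of Col-0 and vtc1-1 were 59.8 and 29.8 for AT5G05600, and 79.3 and 30.4 for AT1G14120.

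AT1G76240 had signals of 209, 183 and 134 in Col-0 and 72.3, 65.8 and 102 in vtc1-1, and fell by 1.31 ± 0.22 on the log2 scale without Col-0 replicate 3 (limma adjusted p = 0.0263). Col-0 replicate 3 was here the nearest of the wild-type arrays to vtc1-1. In 5 of the 12 genes named on this side, AT1G14120 among them, it was instead the highest of all 6 arrays, and the difference shrank when it was left out. The pectin methylesterase AT3G10720 went from -0.70 to -0.40, the class III peroxidase AT4G33420 from -0.85 to -0.55, AT1G18740 from -0.76 to -0.46 and AT2G36220 from -0.97 to -0.66. AT4G32030, AT1G68410 (a protein phosphatase of the PP2C type), AT2G36410 and AT5G09270 differed by -0.76, -0.71, -0.62 and -0.62 with all arrays and by -0.88, -0.80, -0.82 and -0.65 without it.

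**Figure D2:**
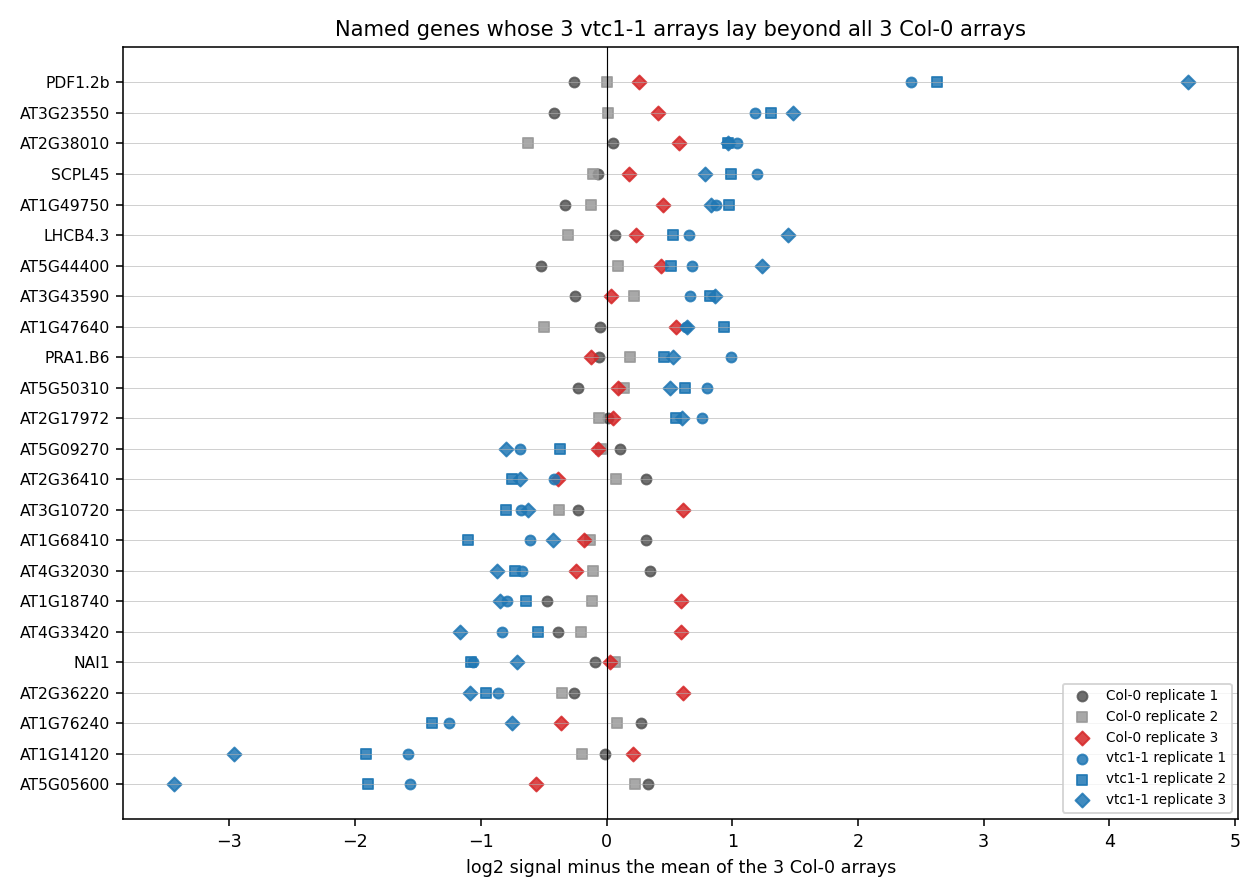
log2 signal of each array minus the mean of the 3 Col-0 arrays (horizontal axis) for the 12 named genes furthest above and the 12 furthest below the wild type with all arrays, 1 row per gene and 1 point per array. In every row the vtc1-1 points lie on 1 side of all Col-0 points, as the choice of genes required, and Col-0 replicate 3 is the highest array for AT1G14120, AT3G10720, AT1G18740, AT4G33420 and AT2G36220.

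Among the named genes were 5 of the endoplasmic reticulum body system. These bodies are compartments of roots and seedlings that store beta-glucosidases for defence, and NAI1 is the transcription factor known to be needed for them and for the genes named next. NAI1 had signals of 83.7, 93.7 and 91.1 in Col-0 and 42.9, 42.4 and 54.6 in vtc1-1, a log2 difference of -0.95 ± 0.21 that was -0.94 ± 0.25 without Col-0 replicate 3 (limma adjusted p = 0.138). PYK10, the main beta-glucosidase of the bodies, had 2465, 2623 and 3001 in Col-0 and 2031, 1726 and 2318 in vtc1-1.

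NAI2, a structural protein of the bodies, had 454, 392 and 412 in Col-0 and 376, 277 and 355 in vtc1-1. The jacalin lectin JAL33, a component of PYK10 complexes, had 1096, 1067 and 1456 in Col-0 and 652, 591 and 457 in vtc1-1. JAL34, of the same type, had 891, 787 and 1037 in Col-0 and 615, 585 and 701 in vtc1-1. Wild type and mutant did not overlap in these 5 genes, as they did not at 3.58% of all tested probe sets on the lower side, and the count was fixed by the choice. The log2 differences of PYK10, NAI2, JAL33 and JAL34 were -0.42, -0.33, -1.09 and -0.51 with all arrays and -0.34, -0.34, -0.95 and -0.41 without Col-0 replicate 3. None of the 5 passed the test in either fit, and they were brought together after their values were seen. Another jacalin lectin, JAL22, overlapped between the genotypes, with signals of 336, 238 and 149 in Col-0 and 132, 149 and 168 in vtc1-1.

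Functional classes were then described across all of their tested members. In 45 classes with at least 5 tested probe sets, 686 probe sets in all, the class median of the log2 difference was within 0.2 of 0 in 40 classes with all arrays and in 28 classes without Col-0 replicate 3. Leaving out that array moved 7 class medians by 0.2 or more upwards and 0 downwards by as much. Leaving out any other array moved 0 to 2 medians that far upwards and 0 to 4 downwards. The 7 were defensins, subfamily I leucine-rich repeat receptor kinases, chitinases, WRKY factors, berberine bridge enzyme-like oxidases, thaumatin-like proteins and lipid-transfer proteins. CAP and other pathogenesis-related proteins moved the other way, from 0.29 to 0.20 over 7 members. The sign of the median turned in 4 classes, namely class III peroxidases, thaumatin-like proteins, nuclear-encoded photosystem proteins and IQD calmodulin-binding proteins.

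**Figure D3:**
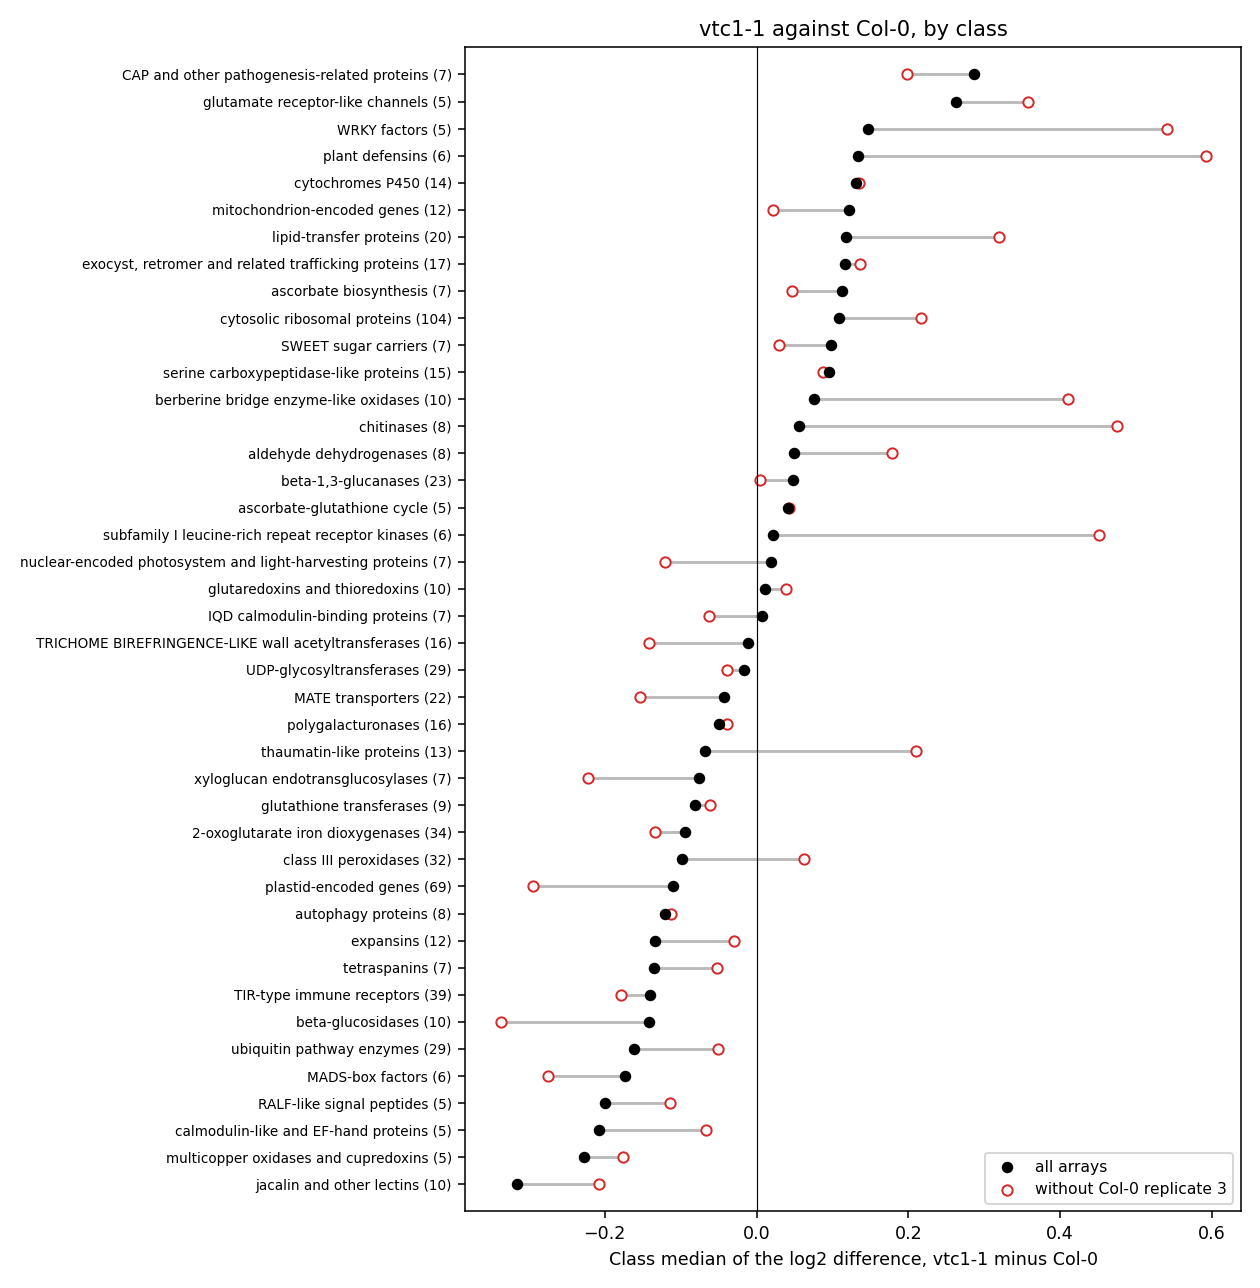
Median log2 difference between vtc1-1 and Col-0 (horizontal axis) in each class with at least 5 tested probe sets, with the number tested in brackets. Filled points use all arrays and open points leave out Col-0 replicate 3. Chitinases move from 0.06 to 0.48 and defensins from 0.13 to 0.59, CAP and other pathogenesis-related proteins from 0.29 to 0.20, and the plastid-encoded genes move from -0.11 to -0.30. Subsets of the plastid-encoded genes are not drawn.

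Chitinases, which cut the chitin of fungal walls, had the largest distance between Col-0 replicate 3 and the mean of Col-0 replicates 1 and 2 of the 45 classes, a median of 2.86 on the log2 scale. Relative to the mean of the 6 arrays, the median of the 8 tested members was -0.70 and -0.61 (log2) in Col-0 replicates 1 and 2, 2.02 in Col-0 replicate 3 and -0.07, 0.15 and -0.01 in the vtc1-1 replicates. Col-0 replicate 3 was the highest of the 6 arrays for 8 of 8, against 17.2% of all tested probe sets, and was at least 2-fold above Col-0 replicates 1 and 2 for 7 of 8, against 6.68%. The median difference was 0.06 with all arrays, where the wild-type arrays lay on either side of the mutant, and 0.48 without Col-0 replicate 3.

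Within the chitinases the mutant took different positions. AT2G43620 had signals of 20.5, 8.64 and 437 in Col-0 and 205, 190 and 245 in vtc1-1, so the mutant lay between the wild-type arrays. For this gene the log2 difference was 2.32 ± 1.32 with all arrays and 3.99 ± 1.00 without Col-0 replicate 3 (limma adjusted p = 0.118). AT2G43590, by contrast, had 74.9, 83.0 and 521 in Col-0 and 82.4, 62.1 and 94.7 in vtc1-1. There the mutant matched Col-0 replicates 1 and 2, at -0.91 ± 0.55 with all arrays and -0.01 ± 0.22 without replicate 3. For 4 of 8 members all vtc1-1 arrays lay above Col-0 replicates 1 and 2 and below Col-0 replicate 3, against 5.01% of all tested probe sets. In most of these 4, AT2G43620 included, the signals of Col-0 replicates 1 and 2 were under the 40th percentile of the array. Such members passed the filter through other arrays, so it favoured this order and the count was no support for a difference.

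Berberine bridge enzyme-like oxidases, which oxidise sugars and defence compounds outside the cell, followed with a median distance of 1.98. The class medians were -0.66 and -0.31 in Col-0 replicates 1 and 2, 1.44 in Col-0 replicate 3 and -0.07, 0.01 and 0.20 in vtc1-1, with 7 of 10 members at least 2-fold above in Col-0 replicate 3. The median difference was 0.08 with all arrays and 0.41 without it. AT4G20830, an oxidase of oligogalacturonides from pectin, had signals of 61.5, 111 and 456 in Col-0 and 116, 93.1 and 88.7 in vtc1-1. AT4G20860, an oxidase of cellulose fragments, had 146, 200 and 539 in Col-0 and 198, 182 and 154 in vtc1-1. In both genes the mutant stayed at the level of Col-0 replicates 1 and 2. AT1G26380 had 12.8, 12.8 and 240 in Col-0 and 18.5, 53.6 and 56.1 in vtc1-1, where the mutant lay between (it was picked after its values were seen).

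Subfamily I leucine-rich repeat receptor kinases, cell-surface receptors of which several respond to microbes, had 6 tested members of 34 on the array. Their medians were -0.26, -0.63 and 1.07 in the Col-0 replicates and 0.09, 0.02 and 0.07 in vtc1-1, and the median difference was 0.02 with all arrays and 0.45 without Col-0 replicate 3. The brightest member, AT1G51805, did not share this order, with signals of 572, 742 and 486 in Col-0 and 533, 445 and 484 in vtc1-1. The 5 tested WRKY transcription factors, of a family that drives defence and senescence genes, had medians of -0.44, -0.55 and 0.74 in Col-0 and -0.07, 0.39 and 0.14 in vtc1-1, with a median difference of 0.15 and 0.54. WRKY47 had signals of 64.1, 59.6 and 107 in Col-0 and 74.8, 114 and 124 in vtc1-1, and WRKY20 differed by 0.15 ± 0.18.

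**Figure D4:**
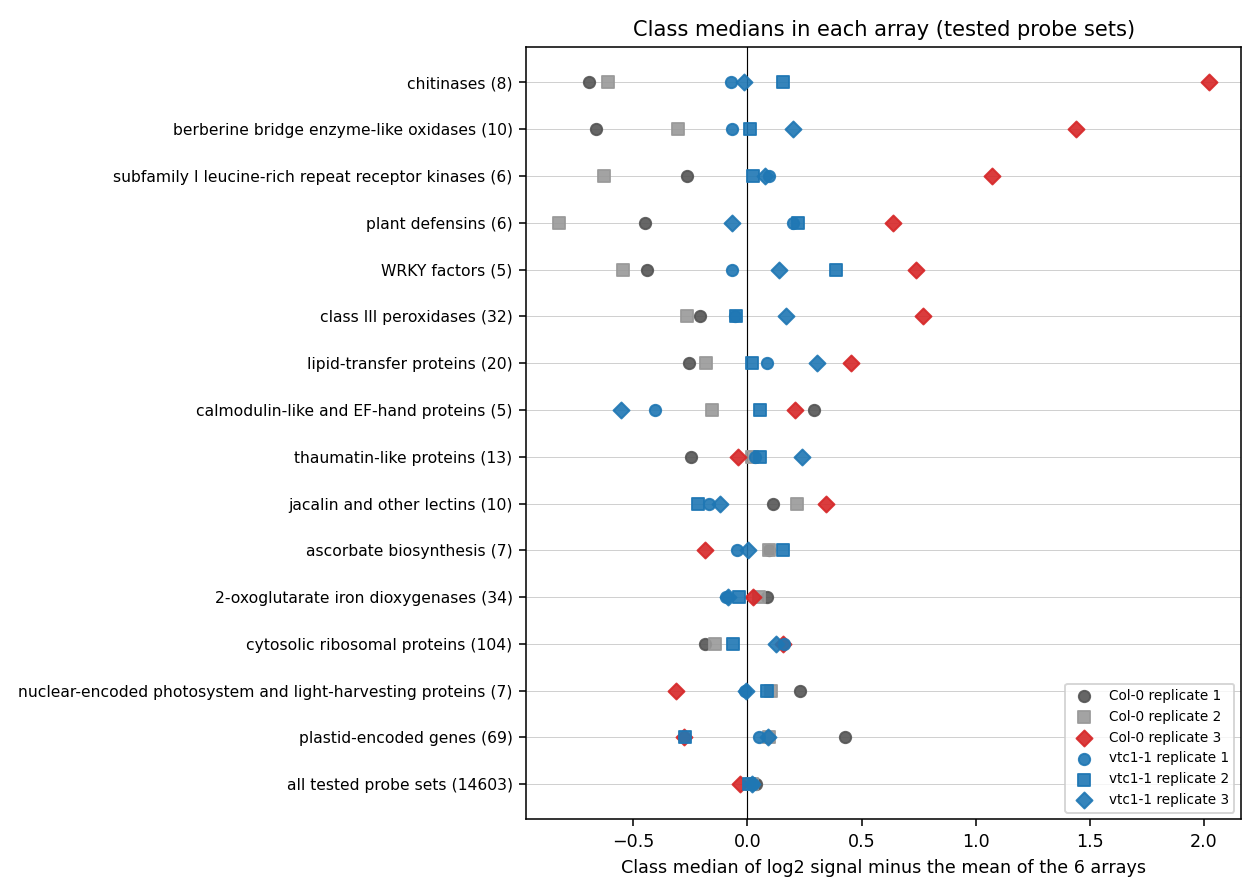
Median over the tested members of a class (number in brackets) of the log2 signal minus the mean of the 6 arrays (horizontal axis), 1 point per array. Col-0 replicate 3 is at 2.02 for chitinases and 1.44 for berberine bridge enzyme-like oxidases, while the 3 vtc1-1 arrays lie between -0.07 and 0.20 in both classes; all tested probe sets centre near 0 in every array.

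Class III peroxidases, secreted enzymes that make or use hydrogen peroxide in the cell wall, had 32 tested members. Their medians were -0.21 and -0.26 in Col-0 replicates 1 and 2, 0.77 in Col-0 replicate 3 and -0.06, -0.05 and 0.17 in vtc1-1. Col-0 replicate 3 was at least 2-fold above for 16 of 32 and at least 2-fold below for 0. The median difference was -0.10 with all arrays, with 12 members higher and 20 lower, and 0.06 without that array, with 16 higher and 16 lower.

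AT4G36430 had signals of 42.2, 47.9 and 121 in Col-0 and 126, 115 and 153 in vtc1-1. It was the only peroxidase that passed in the fit without Col-0 replicate 3, where it rose by 1.54 ± 0.20 (limma adjusted p = 0.00865). Its level in Col-0 replicate 3 was within the vtc1-1 range. AT5G64120 had 129, 156 and 1376 in Col-0 and 411, 529 and 712 in vtc1-1, with a difference of 0.83 ± 0.73 with all arrays and 1.92 ± 0.42 without it (adjusted p = 0.0792). AT4G33420, already named among the lower genes, had 97.9, 111 and 193 in Col-0 and 71.7, 87.5 and 57.1 in vtc1-1, without overlap, a difference of -0.85 ± 0.26 with all arrays that passed in neither fit.

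Lipid-transfer proteins, small secreted carriers of lipids with roles in cuticles and in systemic defence, had a median difference of 0.12 with all arrays and 0.32 without Col-0 replicate 3 over 20 tested members. AT4G12490, close to the AZI1 and EARLI1 proteins, had signals of 62.7, 68.5 and 1495 in Col-0 and 874, 1160 and 910 in vtc1-1. The mutant was high throughout, but Col-0 replicate 3 was higher still, by 22.8-fold over Col-0 replicates 1 and 2. It rose by 3.89 ± 0.53 without that array (limma adjusted p = 0.0102), against 2.39 ± 0.98 with all arrays (adjusted p = 0.998). AT3G18280 had 176, 175 and 364 in Col-0 and 325, 341 and 338 in vtc1-1, and rose by 0.93 ± 0.15 without Col-0 replicate 3 (adjusted p = 0.0263).

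The 6 tested defensins had a median difference of 0.13 with all arrays and 0.59 without Col-0 replicate 3. In 2 of 6 the genotypes did not overlap, both higher in vtc1-1 (4.36% of all tested probe sets). In both, PDF1.2b and PDF1.2, all Col-0 signals were under the 40th percentile of the array. They passed the filter only through mutant arrays, so it favoured this direction and the count was no support for a difference. Of the 6, 4 were at least 2-fold above in Col-0 replicate 3 (6.68% of all). PDF1.2, a close relative of PDF1.2b, had signals of 28.9, 3.11 and 27.1 in Col-0 and 40.3, 38.2 and 92.6 in vtc1-1, most of them dim. LCR69 had 618, 586 and 1282 in Col-0 and 876, 827 and 635 in vtc1-1, and LCR68 had 240, 324 and 520 in Col-0 and 370, 347 and 396 in vtc1-1. Of the 6, PDF1.2b had the smallest distance of Col-0 replicate 3, which lay 1.31-fold above Col-0 replicates 1 and 2.

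Thaumatin-like proteins, a class that includes antifungal proteins, had a median of -0.07 with all arrays and 0.21 without Col-0 replicate 3 over 13 members. OSM34, related to osmotin, had 51.4, 94.7 and 1489 in Col-0 and 96.4, 177 and 223 in vtc1-1. Its difference was -0.31 ± 0.89 with all arrays and 1.16 ± 0.36 without that array (limma adjusted p = 0.185), so its sign followed Col-0 replicate 3. ATLP-1 had 63.2, 81.4 and 87.8 in Col-0 and 99.9, 113 and 126 in vtc1-1, without overlap, and AT2G28790 differed by 0.50 ± 0.22. For 23 beta-1,3-glucanases, which cut callose and fungal walls, the median was 0.05 with all arrays and 0.00 without Col-0 replicate 3.

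**Figure D5:**
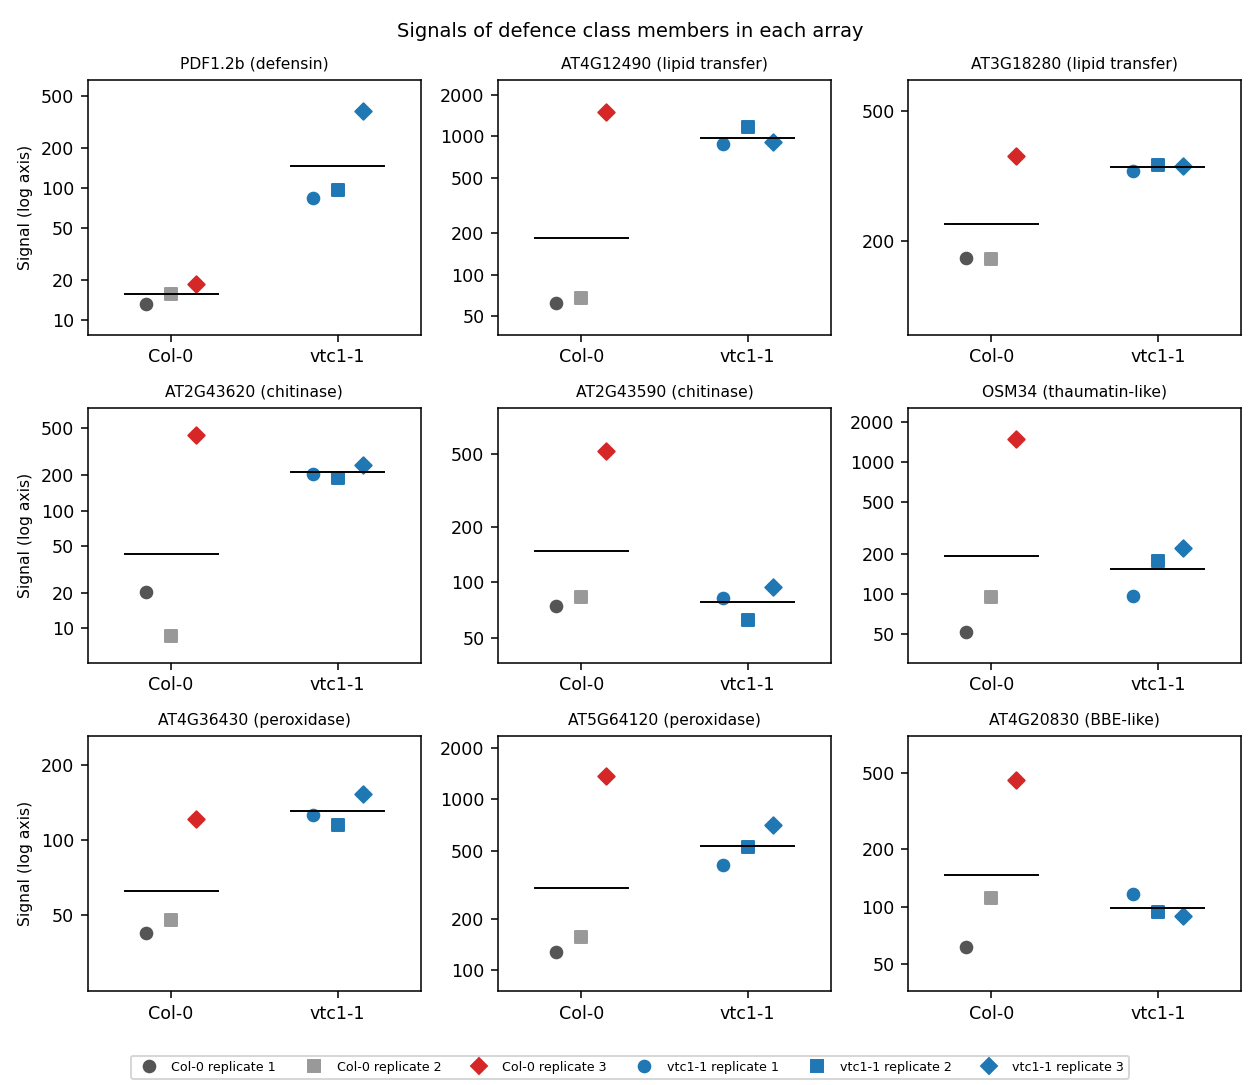
Deposited signal (log axis) of 9 members of defence classes in the 3 Col-0 and 3 vtc1-1 arrays, with a bar at the mean of the log signals. Col-0 replicate 3 exceeds all vtc1-1 arrays for AT4G12490, AT3G18280, AT2G43620, AT2G43590, OSM34, AT5G64120 and AT4G20830, and lies below all of them for PDF1.2b.

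Other defence classes moved little with that array. Receptors of the TIR type, which detect pathogen effectors inside the cell, had a median of -0.14 with all arrays and -0.18 without Col-0 replicate 3, and in the first of these fits 28 of 39 were lower and 11 higher. An unadjusted p under 0.05 was reached by 0 on the higher and 1 on the lower side, against 2.26% and 1.87% of all tested probe sets. AT4G19530 had signals of 485, 500 and 249 in Col-0 and 346, 296 and 352 in vtc1-1, where Col-0 replicate 3 was the lowest of the 6 arrays. Jacalin and other lectins had a median of -0.32 with all arrays and -0.21 without it over 10 members. The array medians of the lectins were 0.11, 0.22 and 0.34 in Col-0 and -0.17, -0.22 and -0.12 in vtc1-1, without overlap. Among the members 2 of 10 did not overlap, both lower in vtc1-1, against 3.58% of all tested probe sets. This separation of array medians was not particular to lectins. It was also seen, in either direction, in the TIR-type receptors above, thaumatin-like proteins and serine carboxypeptidase-like proteins. Ubiquitin pathway enzymes, beta-glucosidases and the dioxygenases described next showed it too.

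Dioxygenases that need 2-oxoglutarate and iron, enzymes for which ascorbate is a known cofactor, had 34 tested probe sets of 33 genes, of which 26 were lower and 8 higher in vtc1-1. The median was -0.09 with all arrays and -0.13 without Col-0 replicate 3. In 5 of 34 probe sets the groups did not overlap, all lower in vtc1-1, against 3.58% of all tested probe sets. Beyond AT5G05600 and AT1G14120 these were AT3G12900, AT1G35190 and AT1G06640, named because they complete the count. AT3G12900, a coumarin hydroxylase of the iron response, had signals of 46.8, 26.6 and 96.2 in Col-0 and 25.9, 20.5 and 11.0 in vtc1-1. All its vtc1-1 signals were under the 40th percentile of their array, so it passed the filter without any vtc1-1 array. AT5G05600 and AT1G14120 each had 2 of 3 vtc1-1 signals under that limit. The filter favoured this direction for such members, so the count was no support for a difference.

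AT3G13610, the hydroxylase that opens coumarin synthesis, had 59.4, 108 and 667 in Col-0 and 69.7, 104 and 81.5 in vtc1-1. The mutant matched Col-0 replicates 1 and 2, and the difference of -0.95 ± 0.63 with all arrays became 0.07 ± 0.28 without Col-0 replicate 3. Multicopper oxidases and cupredoxins, a family to which ascorbate oxidase belongs, had a median of -0.23 and -0.18 over 5 members. SKU5, a wall protein of that family that guides root growth, had signals of 763, 1029 and 524 in Col-0 and 555, 567 and 596 in vtc1-1.

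Enzymes of specialised metabolism showed small medians. For 14 cytochromes P450 the median was 0.13 with all arrays and 0.14 without Col-0 replicate 3, for 29 UDP-glycosyltransferases -0.02 and -0.04, for 15 serine carboxypeptidase-like proteins 0.10 and 0.09, and for 8 aldehyde dehydrogenases 0.05 and 0.18. CYP71B23 had signals of 63.3, 55.4 and 203 in Col-0 and 120, 157 and 108 in vtc1-1, with the mutant between the wild-type arrays. CYP71B6 had 162, 166 and 373 in Col-0 and 158, 193 and 191 in vtc1-1, and UGT72E2, which glycosylates lignin precursors, had 81.0, 85.8 and 217 in Col-0 and 77.9, 95.0 and 102 in vtc1-1. In these genes Col-0 replicate 3 was the highest array, but CYP71B23 and UGT72E2 were named for its distance. UGT88A1 went the other way, with 949, 1039 and 639 in Col-0 and 1116, 985 and 973 in vtc1-1. Col-0 replicate 3 was highest for 7 and lowest for 7 of the 29 UDP-glycosyltransferases, and for 4 and 2 of the 14 cytochromes P450. Over all tested probe sets it was highest at 17.2% and lowest at 22.7%.

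The 10 beta-glucosidases had medians of -0.14 and -0.34. BGLU16 had signals of 288, 287 and 218 in Col-0 and 175, 218 and 147 in vtc1-1, a log2 difference of -0.56 ± 0.19 with all arrays and -0.70 ± 0.19 without Col-0 replicate 3 (limma adjusted p = 0.146). BGLU46, which acts on lignin precursors, differed by -0.60 ± 0.23. MATE carriers as a class did not follow AT3G23550: 8 of 22 were higher and 14 lower, with a median of -0.04 (-0.15 without Col-0 replicate 3), and AT1G33110 had 134, 161 and 76.6 in Col-0 and 107, 84.8 and 97.5 in vtc1-1.

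Sugar carriers of the SWEET family had a median of 0.10 with all arrays and 0.03 without Col-0 replicate 3 over 7 members. SWEET1, a glucose carrier of the plasma membrane, had signals of 115, 101 and 122 in Col-0 and 177, 150 and 184 in vtc1-1, without overlap, at 0.59 ± 0.16 and 0.66 ± 0.18 (limma adjusted p = 0.138). SWEET2, which sits in the vacuole membrane, had 248, 188 and 99.0 in Col-0 and 120, 109 and 127 in vtc1-1. There Col-0 replicate 3 was below all vtc1-1 arrays, and the difference was -0.49 ± 0.27 with all arrays and -0.87 ± 0.19 without it (adjusted p = 0.0792).

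Wall and growth classes had medians near or below 0. Expansins, which loosen walls, had -0.13 with all arrays and -0.03 without Col-0 replicate 3 over 12 members, xyloglucan endotransglucosylases -0.08 and -0.22 over 7, polygalacturonases -0.05 and -0.04 over 16, and the TRICHOME BIREFRINGENCE-LIKE wall acetyltransferases -0.01 and -0.14 over 16. EXPB3 differed by 0.32 ± 0.18 and EXLA1 by -0.42 ± 0.22, and XTH16 had signals of 313, 277 and 154 in Col-0 and 223, 229 and 224 in vtc1-1. TBL36 had 134, 156 and 175 in Col-0 and 188, 240 and 218 in vtc1-1, without overlap.

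RALF-like signal peptides, which slow cell expansion, had a median of -0.20 with all arrays and -0.11 without Col-0 replicate 3 over 5 members. RALFL33 had signals of 541, 494 and 608 in Col-0 and 441, 471 and 363 in vtc1-1, and RALFL32 had 172, 184 and 279 in Col-0 and 149, 162 and 144 in vtc1-1. Both were lower in every vtc1-1 array, at log2 differences of -0.37 ± 0.16 and -0.45 ± 0.20. GLR3.3, a glutamate receptor-like channel of wound signalling, was also lower without overlap, at -0.41 ± 0.18, while the median of its 5-member class was 0.26 with all arrays and 0.36 without Col-0 replicate 3.

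Classes of protein turnover and trafficking had medians within 0.2 of 0. Ubiquitin pathway enzymes had medians of -0.16 with all arrays and -0.05 without Col-0 replicate 3 over 29 members, autophagy proteins -0.12 and -0.11 over 8, and trafficking proteins of the exocyst and retromer 0.12 and 0.14 over 17. PUB23, a ubiquitin ligase that dampens immunity, had signals of 71.9, 78.9 and 294 in Col-0 and 55.3, 78.5 and 63.0 in vtc1-1, so the mutant matched Col-0 replicates 1 and 2. UBC28, a ubiquitin-conjugating enzyme, had 2658, 2514 and 2243 in Col-0 and 2200, 2069 and 1683 in vtc1-1. Smaller classes had medians of -0.14 and -0.05 (7 tetraspanins), -0.17 and -0.28 (6 MADS-box factors), -0.21 and -0.07 (5 calmodulin-like proteins) and 0.01 and -0.06 (7 IQD proteins) with all arrays and without Col-0 replicate 3.

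Cytosolic ribosomal proteins, 104 tested of 111 on the array, had a median of 0.11 with all arrays and 0.22 without Col-0 replicate 3, with 80 higher and 24 lower, and 87 higher and 17 lower. Their array medians were -0.18, -0.14 and 0.15 in Col-0 and 0.16, -0.06 and 0.13 in vtc1-1, so that Col-0 replicate 3 sat among the mutant arrays. The groups did not overlap for 3 that were higher and 1 that was lower, counts near or below the shares of 4.36% and 3.58% over all tested probe sets. Without that array 25 of 104 reached an unadjusted p under 0.05 on the higher side, against 7.07% of all, and 0 passed after adjustment. AT2G39390, of the large subunit, had signals of 163, 161 and 261 in Col-0 and 251, 246 and 292 in vtc1-1.

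The few tested nuclear genes of photosynthesis were mostly lowest in Col-0 replicate 3. Of 42 written loci of nuclear-encoded photosystem and light-harvesting proteins, 7 were paired with a probe set and tested. They had array medians of 0.23, 0.10 and -0.31 in Col-0 and -0.01, 0.09 and -0.01 in vtc1-1. Col-0 replicate 3 was the lowest of the 6 arrays for 6 of 7, against 22.7% of all tested probe sets. LHCB4.2, a minor antenna protein, had signals of 7578, 7557 and 4187 in Col-0 and 6169, 6524 and 6011 in vtc1-1. Its difference was 0.00 ± 0.21 with all arrays and -0.28 ± 0.12 without that array (limma adjusted p = 0.356). PSBY had 4905, 4925 and 3692 in Col-0 and 4196, 4918 and 5033 in vtc1-1.

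Plastid-encoded genes, 69 tested, had a median of -0.11 with all arrays and -0.30 without Col-0 replicate 3. With all arrays 53 were lower and 16 higher, and without it 61 and 8. Their array medians spread from -0.28 to 0.43 within Col-0 and from -0.27 to 0.09 within vtc1-1, so the spread inside each genotype exceeded the difference between them. For 9 of 69 all vtc1-1 arrays lay below Col-0 replicates 1 and 2 and above Col-0 replicate 3, against 6.09% of all tested probe sets. By function the medians were -0.17 and -0.32 for 10 genes of the NDH complex, -0.17 and -0.36 for 20 photosystem genes and -0.07 and -0.25 for 19 ribosomal and RNA polymerase genes.

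The plastid gene ndhH had signals of 293, 207 and 112 in Col-0 and 89.5, 54.0 and 191 in vtc1-1, with overlap. For ndhH the difference was -0.96 ± 0.41 with all arrays and -1.34 ± 0.38 without Col-0 replicate 3 (limma adjusted p = 0.147). psbH had 3300, 3876 and 1535 in Col-0 and 2033, 1367 and 2758 in vtc1-1, where Col-0 replicate 3 lay within the vtc1-1 range. The 12 tested probe sets of mitochondrion-encoded genes had medians of 0.12 and 0.02.

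The calls made without Col-0 replicate 3 name 20 genes that rose and 5 that fell, each against the remaining 2 wild-type arrays. The naming rule took the 12 largest rises and all 5 falls. With all arrays limma called 0 probe sets. The adjusted p-values do not account for the choice to leave out Col-0 replicate 3, which rested on these same data. AT2G25510 had signals of 1962, 1114 and 6448 in Col-0 and 6561, 6781 and 5811 in vtc1-1, and rose by 2.11 ± 0.37 as log2 (limma, adjusted p = 0.0272). Its difference with all arrays was 1.40 ± 0.53 (limma adjusted p = 0.998). AT2G41090, a calmodulin-like calcium sensor, had 343, 377 and 1667 in Col-0 and 1890, 1431 and 1629 in vtc1-1, and rose by 2.19 ± 0.38 (adjusted p = 0.0267). AT3G22240 had 314, 214 and 2927 in Col-0 and 1911, 3241 and 2769 in vtc1-1, and rose by 3.31 ± 0.59 (adjusted p = 0.0305). In all 3 the signal of Col-0 replicate 3 lay within the range of the vtc1-1 arrays.

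AT1G35710, a leucine-rich repeat receptor kinase, had signals of 17.3, 9.90 and 131 in Col-0 and 129, 110 and 82.9 in vtc1-1, and AT1G65500 had 9.55, 29.9 and 243 in Col-0 and 203, 227 and 281 in vtc1-1. Both rose, with limma adjusted p-values of 0.0267 and 0.0267. AT1G19960 had 2.17, 1.49 and 135 in Col-0 and 136, 193 and 131 in vtc1-1 (adjusted p = 0.00376), and AT3G18250 had 1.94, 3.82 and 419 in Col-0 and 80.9, 90.4 and 91.3 in vtc1-1 (adjusted p = 0.00865). For AT1G19960 and AT3G18250, and for AT1G76960 (adjusted p = 0.0117) and AT3G60420 (adjusted p = 0.0305), the signals of Col-0 replicates 1 and 2 lay below the 20th percentile of the array, so no fold is given.

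Of the 5 genes that fell, AT5G05600 and AT1G76240 are described above. AT1G69160 had signals of 317, 287 and 141 in Col-0 and 128, 140 and 134 in vtc1-1 and fell by 1.17 ± 0.20 as log2 (limma, adjusted p = 0.0274). AT4G38690, a phosphodiesterase of the phospholipase C type, had 423, 391 and 176 in Col-0 and 181, 207 and 216 in vtc1-1 and fell by 1.02 ± 0.18 (adjusted p = 0.0267). AT3G16370, a lipase of the GDSL type, had 3460, 3140 and 1567 in Col-0 and 1972, 1910 and 1838 in vtc1-1 and fell by 0.79 ± 0.13 (adjusted p = 0.0267). In the last 3 genes Col-0 replicate 3 lay at or beyond the level of the mutant.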

How the data were processed

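Total RNA of whole seedlings was hybridised to 1-colour ATH1 arrays, 1 per sample. The deposited intensities, 1 linear signal per probe set, were made by the authors; the submitters' processing notes name GCOS and MAS5, whose versions are not given in the sources used here. Each array's mean after trimming 2% at either end was 100.0, so signals had been scaled alike, and scaling hides any change in total RNA. The number of arrays limits the precision.

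log2 signals without pseudocount were fitted as 3 group means over 9 arrays with limma 3.58.1 in R 4.3.3 (eBayes with intensity trend), adjusting p over the 14603 tested probe sets. Control probe sets were left out. The procedure was tested on simulated data. Values after ± are standard errors. Fits without Col-0 replicate 3 still used the other 8 arrays.

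Gene names came from the platform annotation and the TAIR10.1 gene table: 13513 have 1 gene symbol, 503 several, and 8794 are not listed. Classes are lists of loci or symbols; the family lists were written after the annotation arrived, since it holds no gene descriptions. Members, classes and lists were chosen with earlier results of these data known. Named were, among probe sets brighter in the higher group than the median tested one, the 12 largest differences each way with unadjusted p under 0.01 and no overlap; per class the 2 members with the smallest p and the 1 with the largest distance of Col-0 replicate 3; up to 12 rises and 12 falls without Col-0 replicate 3; and all tested ascorbate, organ and reference genes. Genes outside this rule (PDF1.2, JAL22, AT1G26380, AT3G12900, AT1G35190 and AT1G06640) were chosen after their values were seen. Same-numbered Col-0 and vtc1-1 arrays were checked for shared deviations.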

Additional observations from a re-analysis of the deposited data

How the results depend on the processing

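At an adjusted p under 0.05, limma called 0 probe sets with all arrays and 0 to 47 when 1 array was left out, the 47 only without Col-0 replicate 3. It called 0 with quantile normalization, median-centring, a pseudocount of 16, no filter, a 60th percentile filter, no intensity trend, array weights and a fit of only the 6 arrays. The weight of Col-0 replicate 3 was 0.38, the lowest of the 9 arrays. At an unadjusted p under 0.05 the array weights gave 817 higher and 580 lower, no filter gave 535 and 448, and the main analysis 330 and 273. With the replicate block limma called 0, with 421 higher and 297 lower at an unadjusted p under 0.05. Same-numbered Col-0 and vtc1-1 arrays correlated at 0.03, -0.07 and 0.00 in their deviations, so the numbers showed no pairing of these genotypes. Between Col-0 and vtc2-1 the same-numbered values were 0.16, 0.04 and 0.20, and those of differently numbered arrays -0.22 to 0.12. A cause shared by arrays of the same number was not tested. The non-overlapping probe sets numbered 1160 with all arrays, 1174 with quantile normalization, 1178 with median-centring, 761 with the 60th percentile filter and 2204 to 4406 when 1 array was left out (4406 without Col-0 replicate 3), where fewer arrays make separation easier. Signs of small class medians were not stable: of 45 classes, 13 turned sign without Col-0 replicate 1, 10 without Col-0 replicate 2, 4 without Col-0 replicate 3, and 4, 10 and 4 without vtc1-1 replicates 1, 2 and 3. Of the 15 alternatives, only the fit without Col-0 replicate 3 called any probe set, as the main analysis called 0. The direction of calls could therefore not be compared between settings.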
